A study of Mus musculus with 5 samples.

Results

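Accessible chromatin was described here at 2 stretches of mouse chromosome 15, a window of 600 kb given for the Ly6 gene cluster (chr15:74500001-75100000, mm9) and a window of 200 kb given for Endou (chr15:97450001-97650000, mm9). The members are all ATAC-seq peaks that overlap either window in the 5 deposited peak lists. They number 405 of the 332881 peaks in those lists. The Ly6 window held 45 peaks in transgenic SOX13hi, 20 in transgenic SOX13lo, 30 in SOX13hi, 43 in SOX13lo and 152 in DP cells. The Endou window held 12 in transgenic SOX13hi, 10 in transgenic SOX13lo, 6 in SOX13hi, 11 in SOX13lo and 76 in DP cells. Both windows were picked because earlier counts of these lists had shown a large excess of DP peaks there, so that excess describes the choice and is given with no test.

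ATAC-seq marks open DNA with a transposase, and each group was 1 library of sorted C57BL/6 thymocytes. The 4 γδ libraries, of 40000 cells each, came from TCRbeta KO mice with the Sox13 ECFP KI/+ reporter, either with the Sox13 transgene (Sox13tg+) or without it, and were sorted from γδ+ CD24+ cells as CFPhi (SOX13hi) or CFPlo/- (SOX13lo). The DP library came from double-positive thymocytes of wild-type C57BL/6 mice, so the cell type and the TCRbeta KO and reporter alleles differ together between γδ and DP cells and cannot be told apart. No source used here gives what drives the transgene, the age of the mice or how many were pooled. In a bulk library, a site open in few cells cannot be told apart from a site weakly open in many.

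Ly6 genes encode small, cysteine-rich surface proteins, most of them held on the membrane by a lipid anchor, and several serve as markers of blood cell stages. Ly6d (also called Thb) is carried by cortical thymocytes and marks B-lineage progenitors. Ly6e is the thymic shared antigen TSA-1, found on immature thymocytes. Ly6a is Sca-1, the marker of blood stem cells that activated T cells also carry. Ly6c1 and Ly6c2 encode the Ly6C antigen of monocytes and memory T cells. Endou encodes a poly(U)-specific endoribonuclease that cuts RNA at uridines. Double-positive cells are the CD4+ CD8+ stage of the αβ lineage, which γδ cells do not pass through.

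In the RefSeq annotation of GRCm38.p6, 13 protein-coding genes run from Ly6d to Ly6c2, and 9 of them have Ly6 names. Ly6d comes first, 7 other protein-coding genes separate it from Ly6e, Ly6i lies between Ly6e and Ly6a, and Ly6a, Ly6c1 and Ly6c2 follow one another. Endou lies between Rpap3 and Rapgef3 on the same chromosome. The peaks are on mm9, whose coordinates differ from GRCm38.p6, so no peak was placed on a gene, an exon or a promoter. Whether each member gene lies inside its window was not analysed here.

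Promoter sequences (250 bases before to 50 after the start, from RefSeq on GRCm38.p6) were at hand for 2 of the 6 genes, Ly6c1 (chr15:75048788-75049087, minus strand) and Ly6c2 (chr15:75111922-75112221, minus strand). They are shown because these genes are neighbouring, similar copies. How reads that match several copies were assigned is not stated. Of 260 aligned bases, 82.3% were identical. Capitals mark their longest shared run, 20 bases, which 1 other promoter among the 32847 searched held, that of the neighbouring Ly6a2. It contains CAGCTG, a palindromic form of the E-box, which 16.3% of all 32851 promoters in the table held on either strand.
Ly6c1: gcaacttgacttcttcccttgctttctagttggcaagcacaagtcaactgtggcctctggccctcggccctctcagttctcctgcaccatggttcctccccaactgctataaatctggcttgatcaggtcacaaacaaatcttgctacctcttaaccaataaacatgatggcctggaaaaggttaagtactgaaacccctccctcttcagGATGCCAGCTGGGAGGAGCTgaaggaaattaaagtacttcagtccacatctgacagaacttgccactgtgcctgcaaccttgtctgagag
Ly6c2: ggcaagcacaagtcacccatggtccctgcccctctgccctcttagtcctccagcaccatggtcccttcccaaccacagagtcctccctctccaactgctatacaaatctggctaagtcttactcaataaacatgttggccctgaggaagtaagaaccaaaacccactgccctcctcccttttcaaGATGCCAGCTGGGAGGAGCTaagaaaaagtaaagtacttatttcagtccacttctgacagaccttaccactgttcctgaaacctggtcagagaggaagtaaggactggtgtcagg

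The lists differed in length, from 33155 peaks in transgenic SOX13lo to 113877 in DP, and the read depth behind them is unknown. Counts are therefore also given as rates per 10000 peaks of the list, and for the 33155 highest-scoring peaks of each list, called lists of equal length. Every peak line of the SOX13lo list names SOX13hi, and the labels give the transgenic SOX13hi and DP libraries the same index. The labels were followed, and ratios among γδ libraries are also given with the SOX13hi and SOX13lo lists exchanged. With 1 library a group there is no replicate check. Intervals are exact 95% intervals that cover counting error only, and they treat neighbouring peaks as independent.

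In the Ly6 window, the γδ libraries had lower rates than DP cells, and the γδ libraries differed from one another by less than their counting intervals. The rate was 7.04 per 10000 peaks in transgenic SOX13hi, 6.03 in transgenic SOX13lo, 5.51 in SOX13hi, 6.37 in SOX13lo and 13.3 in DP cells. The pooled γδ rate was 0.472 times that of DP (interval 0.372 to 0.598), and single γδ libraries lay between 0.413 and 0.527 times DP. The window was chosen for its DP excess. Intervals of its ratios to DP do not cover that choice and are not read as tests. In lists of equal length the window held 26 peaks in transgenic SOX13hi, 20 in transgenic SOX13lo, 17 in SOX13hi, 20 in SOX13lo and 40 in DP cells, a pooled ratio of 0.519 (0.352 to 0.777). Transgenic SOX13hi alone was then at 0.65 times DP (0.381 to 1.09), an interval that includes 1. Joining neighbouring peaks within 150 bp gave 0.601. On chromosome 15 outside both windows the pooled γδ rate was 0.854 times that of DP (0.823 to 0.886), so the DP list held a larger share of its peaks on this chromosome there too. Its part in the window ratios was not tested.

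The Endou window had a lower pooled ratio. The rate was 1.88 per 10000 peaks in transgenic SOX13hi, 3.02 in transgenic SOX13lo, 1.10 in SOX13hi, 1.63 in SOX13lo and 6.67 in DP cells. The pooled γδ rate was 0.267 times that of DP (0.177 to 0.398), and single libraries ranged from 0.165 in SOX13hi to 0.452 in transgenic SOX13lo. In lists of equal length the peaks numbered 4 in transgenic SOX13hi, 10 in transgenic SOX13lo, 5 in SOX13hi, 3 in SOX13lo and 18 in DP cells. Their pooled ratio was 0.306 (0.156 to 0.604), and that of transgenic SOX13lo alone, 0.556 (0.229 to 1.27), spanned equality. This window too was chosen for its DP excess, which the intervals of its ratios to DP do not cover.

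**Figure D1:**
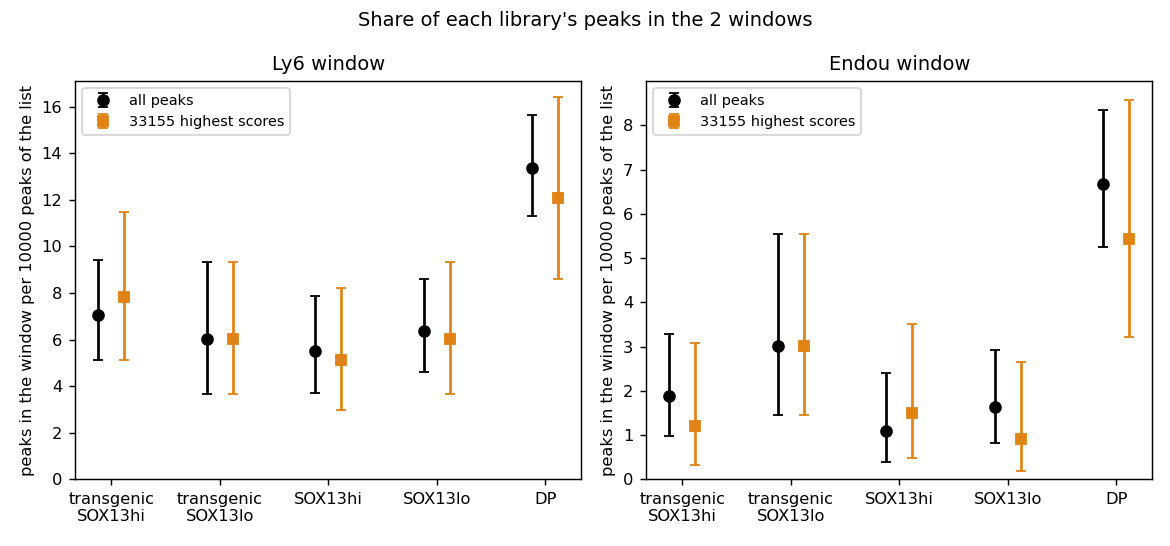
Peaks in the Ly6 window (left) and the Endou window (right) per 10000 peaks of each library's list, for all peaks and for the 33155 highest-scoring peaks, with exact Poisson 95% intervals (1 library per group). With all peaks, the γδ libraries lie between 5.51 and 7.04 in the Ly6 window and between 1.10 and 3.02 in the Endou window, and DP cells lie at 13.3 and 6.67.

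Among 600 kb tiles of the genome with a peak in at least 1 library, the tiles held a median of 15 peaks in transgenic SOX13hi, 7 in transgenic SOX13lo, 13 in SOX13hi, 15 in SOX13lo and 23 in DP cells. The Ly6 window was thus above the median of every library. Tiles at least as dense made up 6.02% of these in transgenic SOX13hi, 12.8% in transgenic SOX13lo, 15.1% in SOX13hi, 9.55% in SOX13lo and 0.420% in DP cells. For the Endou window, 200 kb tiles (again those with a peak) at least as dense made up 24.9% in transgenic SOX13hi, 11.1% in transgenic SOX13lo, 44.5% in SOX13hi, 29.7% in SOX13lo and 0.529% in DP cells. The SOX13hi count of 6 peaks there was close to the median tile of that list, 5 peaks. Both windows were chosen for their many DP peaks, so the small DP shares describe that choice and nothing is read from them.

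The 600 kb of the Ly6 window were filled unevenly. Of its 30 bins of 20 kb, 10 held no peak in any library and 14 held none in any γδ library. DP peaks were above every γδ library in 15 bins and below at least 1 in 3 bins. Between 74620001 and 74700000 none of the 5 lists had a peak. In the last 6 bins, from 74980001 to 75100000, the γδ lists had 0 peaks and the DP list 2. These stretches, and the blocks that follow, were delimited after the counts were seen.

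The DP peaks were densest in 80 kb between 74720001 and 74800000. The 4 bins there held 4, 2, 8 and 5 peaks in transgenic SOX13hi, 1, 1, 5 and 2 in transgenic SOX13lo, 1, 2, 3 and 3 in SOX13hi, 2, 2, 3 and 2 in SOX13lo, and 20, 19, 16 and 28 in DP cells. Each of these DP bins was above every γδ bin of the window. Together they held 19 peaks in transgenic SOX13hi, 9 in each of the other γδ libraries and 83 in DP cells, which is 54.6% of the DP peaks of the window. The pooled γδ rate there was 0.288 times that of DP (0.196 to 0.418). The block was picked for its DP peaks, which itself lowers this ratio and raises that of the rest of the window. Its interval does not cover that choice.

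**Figure D2:**
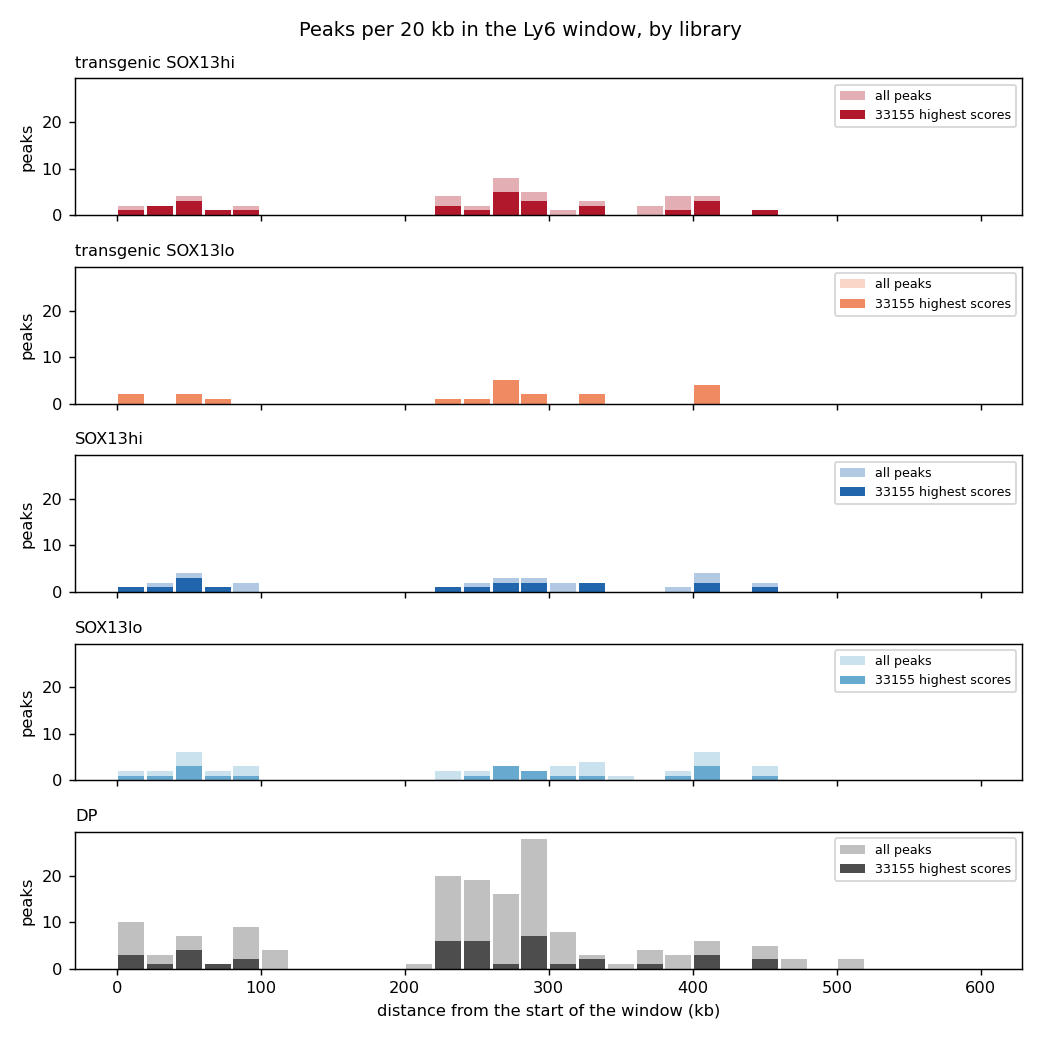
Number of peaks in each 20 kb bin of the Ly6 window against the distance from its start (kb), 1 panel per library, for all peaks (pale) and for the 33155 highest-scoring peaks (dark). No γδ library exceeds 8 peaks in any bin, and DP cells reach 16 to 28 per bin between 220 and 300 kb.

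The rest of the window was closer between the cell types. It held 26 peaks in transgenic SOX13hi, 11 in transgenic SOX13lo, 21 in SOX13hi, 34 in SOX13lo and 69 in DP cells. The pooled γδ rate was 0.693 times that of DP (0.502 to 0.962), and each γδ library alone gave an interval that included 1. From 74800001 to 74980000 the rate was 2.35 per 10000 in transgenic SOX13hi, 1.81 in transgenic SOX13lo, 2.02 in SOX13hi, 2.82 in SOX13lo and 2.81 in DP cells, so SOX13lo and DP were level. From 74500001 to 74620000 it was 1.72, 1.51, 1.84 and 2.22 in the γδ libraries in the same order, and 2.99 in DP cells.

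With lists of equal length the dense block held 11 peaks in transgenic SOX13hi, 9 in transgenic SOX13lo, 6 in SOX13hi, 6 in SOX13lo and 20 in DP cells. The pooled ratio was then 0.400 (0.222 to 0.738) in the block and 0.638 (0.373 to 1.13) in the rest, and these intervals overlap. One bin of the block then reversed. Between 74760001 and 74780000 the γδ libraries had 5, 5, 2 and 3 peaks and DP had 1. The 16 DP peaks of that bin thus nearly all fell outside the equal-length list, whereas the flanking bins kept 6, 6 and 7 DP peaks. The bin at 74500001, next in the number of DP peaks, held 2 peaks in transgenic SOX13hi, 2 in transgenic SOX13lo, 1 in SOX13hi, 2 in SOX13lo and 10 in DP cells. With equal lengths it held 1 or 2 in each γδ library and 3 in DP cells.

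The bins in which SOX13hi and SOX13lo had most peaks lay outside the dense block. At 74540001 the counts were 4 in transgenic SOX13hi, 2 in transgenic SOX13lo, 4 in SOX13hi, 6 in SOX13lo and 7 in DP cells. At 74900001 they were 4 in transgenic SOX13hi, 4 in transgenic SOX13lo, 4 in SOX13hi, 6 in SOX13lo and 6 in DP cells. DP was thus above every γδ library in the first of these bins and level with SOX13lo in the second. These counts are not scaled, and the DP list is the longest. With equal lengths the bin at 74900001 held 3, 4, 2 and 3 peaks in the γδ libraries in that order and 3 in DP cells.

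A bin was called where one side's rate was at least 2 times the other's, among bins with at least 4 peaks in the 2 sides together. In the Ly6 window the mean γδ rate was called lower than DP in 8 of 16 bins tested, against 20% of tested bins over the genome, and called higher in 1 bin, against 21.6%. In the Endou window it was called lower in 5 of 6 bins, against 20%, and higher in 0, against 21.5%. With equal lengths 6 of 12 bins in the Ly6 window (genome 13.1%) and 3 of 4 in the Endou window (genome 13.0%) were called lower. The windows were chosen on this contrast, so nothing is read from these shares.

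All Endou window peaks of every library lay in 6 of the 10 bins. The bin at 97550001 held 2 peaks in transgenic SOX13hi, 0 in transgenic SOX13lo, 2 in SOX13hi, 2 in SOX13lo and 31 in DP cells. The next bin held 2, 1, 1 and 2 in the γδ libraries in that order and 14 in DP cells, and the bin after it held 1, 3, 1 and 1 in the γδ libraries and 12 in DP cells. At 97610001 the counts were 5 in transgenic SOX13hi, 4 in transgenic SOX13lo, 2 in SOX13hi, 4 in SOX13lo and 10 in DP cells, and at 97530001 they were 1, 1, 0 and 1 against 5. With equal lengths DP was above every γδ library in 3 bins and level with the highest in 3.

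**Figure D3:**
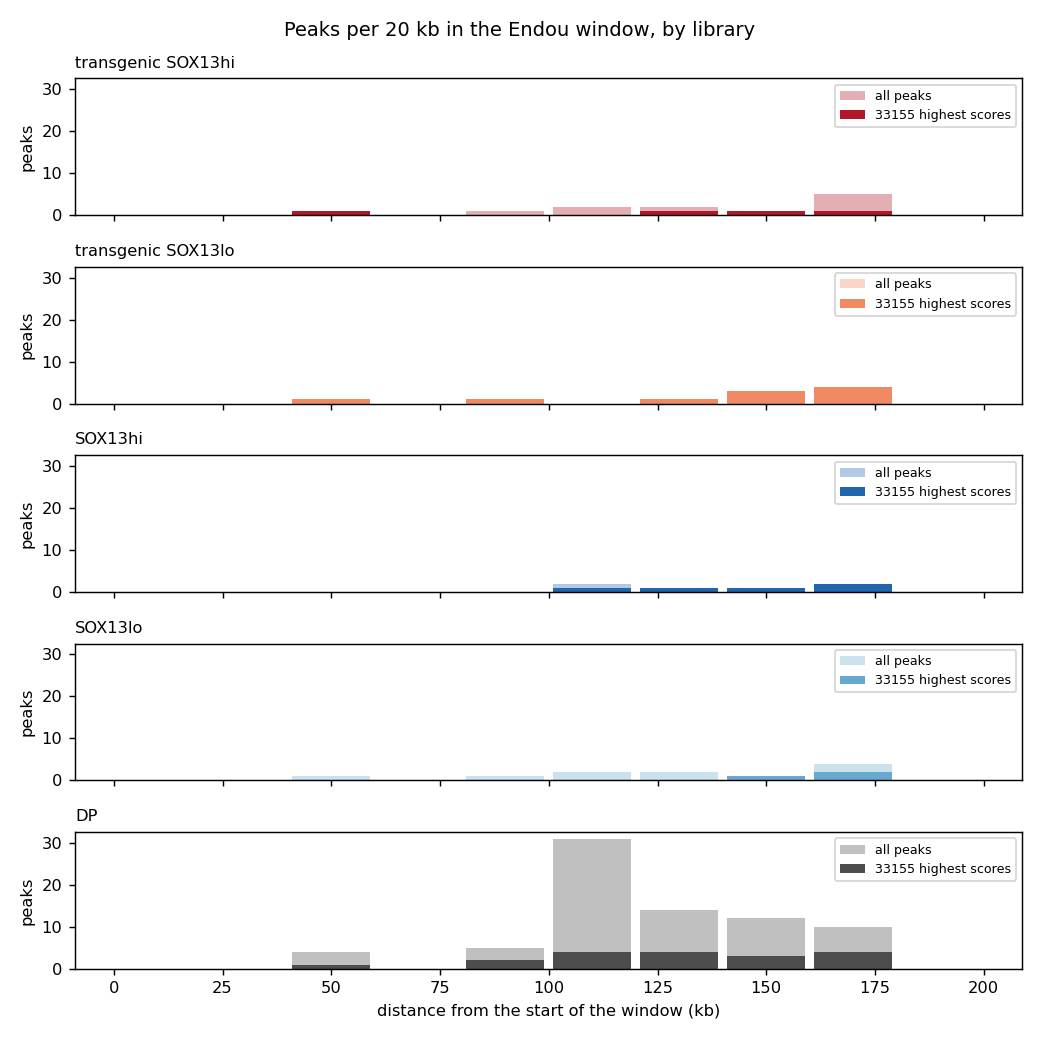
Number of peaks in each 20 kb bin of the Endou window against the distance from its start (kb), 1 panel per library, for all peaks (pale) and for the 33155 highest-scoring peaks (dark). At 100 to 120 kb the γδ libraries have 0 to 2 peaks and DP cells 31, and with equal lengths no DP bin exceeds 4.

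The edges of the 2 windows were not alike. Just inside the left edge of the Ly6 window, the bin had 2, 2, 1 and 2 peaks in the γδ libraries and 10 in DP cells, and just outside it 0, 1, 0 and 0 against 2. At its right edge both bins were empty in all lists. The last bin inside the Endou window was also empty in all lists. The bin just past it, 97650001 to 97670000, held 5 peaks in transgenic SOX13hi, 4 in transgenic SOX13lo, 2 in SOX13hi, 11 in SOX13lo and 28 in DP cells. DP peaks were therefore dense again beyond the window. The SOX13lo count also exceeded its highest bin in the Ly6 window (6) and the Endou window (4). Over the 100 kb past the Endou window the rate per 10000 was 1.72 in transgenic SOX13hi and 1.81 in transgenic SOX13lo. It was 0.919 in SOX13hi, 2.96 in SOX13lo and 4.30 in DP cells.

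DP peaks in these stretches were packed closely. The DP list is the longest, and gaps and runs, which depend on the length of a list, were not recounted with equal lengths. The median gap between neighbouring peaks of the Ly6 window was 1926.5 bp in transgenic SOX13hi, 3149 bp in transgenic SOX13lo, 2724 bp in SOX13hi, 1884 bp in SOX13lo and 255 bp in DP cells. Around Endou it was 5358 bp or more in the γδ libraries and 253 bp in DP cells. Counting a run as peaks with gaps of at most 2 kb, no γδ run in either window had more than 6 peaks. In the Ly6 window the largest had 4 peaks in transgenic SOX13hi, and 4594 of 30057 runs of that list had at least as many. The largest had 4 in transgenic SOX13lo (1841 of 17205), 4 in SOX13hi (3786 of 25778) and 6 in SOX13lo (1793 of 29685). The largest run of DP peaks in the Ly6 window had 27 peaks over 10.04 kb (74784556 to 74794595), and 33 of 41845 DP runs in the genome had as many. The largest in the Endou window had 21 peaks over 6.07 kb (97555949 to 97562016), matched by 72 runs. Many peaks of every library were narrow. Of the Ly6 window peaks, 19 of 45 were 30 bp or less in transgenic SOX13hi, 8 of 20 in transgenic SOX13lo, 16 of 30 in SOX13hi, 20 of 43 in SOX13lo and 59 of 152 in DP cells. Around Endou these were 7 of 12, 6 of 10, 4 of 6 and 3 of 11 in the γδ libraries and 36 of 76 in DP cells. Whether a run is 1 open stretch called in pieces was not tested, and joined peaks gave the ratio of 0.601 above.

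The highest-scoring sites of the Ly6 window were shared. The score, whose meaning the sources used here do not state, was read only as a rank within a list. Percentages of a list come from lists of different length and are not compared between libraries. The highest-scoring γδ peak of the window was at 1 site in all 4 libraries. Its score was above 99.95% of the list in transgenic SOX13hi, 99.96% in transgenic SOX13lo, 99.73% in SOX13hi and 99.42% in SOX13lo. It was 789 bp wide in transgenic SOX13hi, 798 bp in transgenic SOX13lo, 823 bp in SOX13hi and 453 bp in SOX13lo, all between 74916649 and 74917501. DP cells had 2 peaks on it, the stronger being 28 bp wide, at 74917347 to 74917374, and above 96.9% of the DP list.

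The other DP peaks named by score also had γδ counterparts. The DP peak with the highest score lay at 74502695 to 74503327 (above 97.2% of the list) and met γδ peaks above 93.5% of the list in transgenic SOX13hi, 92.4% in transgenic SOX13lo, 93.9% in SOX13hi and 95.6% in SOX13lo. The third by score, 1043 bp wide at 74551350 to 74552392 (above 96.5%), met peaks above 92.1%, 59.2%, 91.6% and 92.1% in the same order. 

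The Endou sites were picked for the highest DP scores in a window chosen for its DP peaks, which itself favours DP. The DP peak with the highest score, at 97561701 to 97562016 (above 95.03% of the list), met a peak above 19.0% of the list in transgenic SOX13hi and 18.3% in SOX13hi. Transgenic SOX13lo had none nearer than 16864 bp and SOX13lo none nearer than 9824 bp. The third, at 97551731 to 97552085 (above 90.5%), met peaks at the lowest score of the transgenic SOX13hi list, above 60.9% of the SOX13hi list and above 46.5% of the SOX13lo list, and no transgenic SOX13lo peak within 15484 bp. The second, at 97614741 to 97614818 (above 92.1%), met peaks above 55.3% in transgenic SOX13hi, 73.0% in SOX13hi and 78.8% in SOX13lo, and missed the nearest transgenic SOX13lo peak by 3 bp.

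For Endou, the highest-scoring γδ peak was above 80.7% of its list in transgenic SOX13hi, 76.6% in transgenic SOX13lo, 82.5% in SOX13hi and 78.8% in SOX13lo. It began at 97578844 in transgenic SOX13hi, 97598207 in transgenic SOX13lo, 97578871 in SOX13hi and 97614694 in SOX13lo. Each met a DP peak. With equal lengths the top peak was above 62.8% of the list in transgenic SOX13hi, 76.6% in transgenic SOX13lo, 71.3% in SOX13hi, 56.9% in SOX13lo and 82.9% in DP cells, the highest of 4, 10, 5, 3 and 18 peaks. The leading peaks of transgenic SOX13hi and SOX13hi thus overlapped, and those of the other γδ lists lay elsewhere, unlike in the Ly6 window. All of these γδ sites lay in regions found in all 5 libraries, and with so few peaks their order is uncertain.

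**Figure D4:**
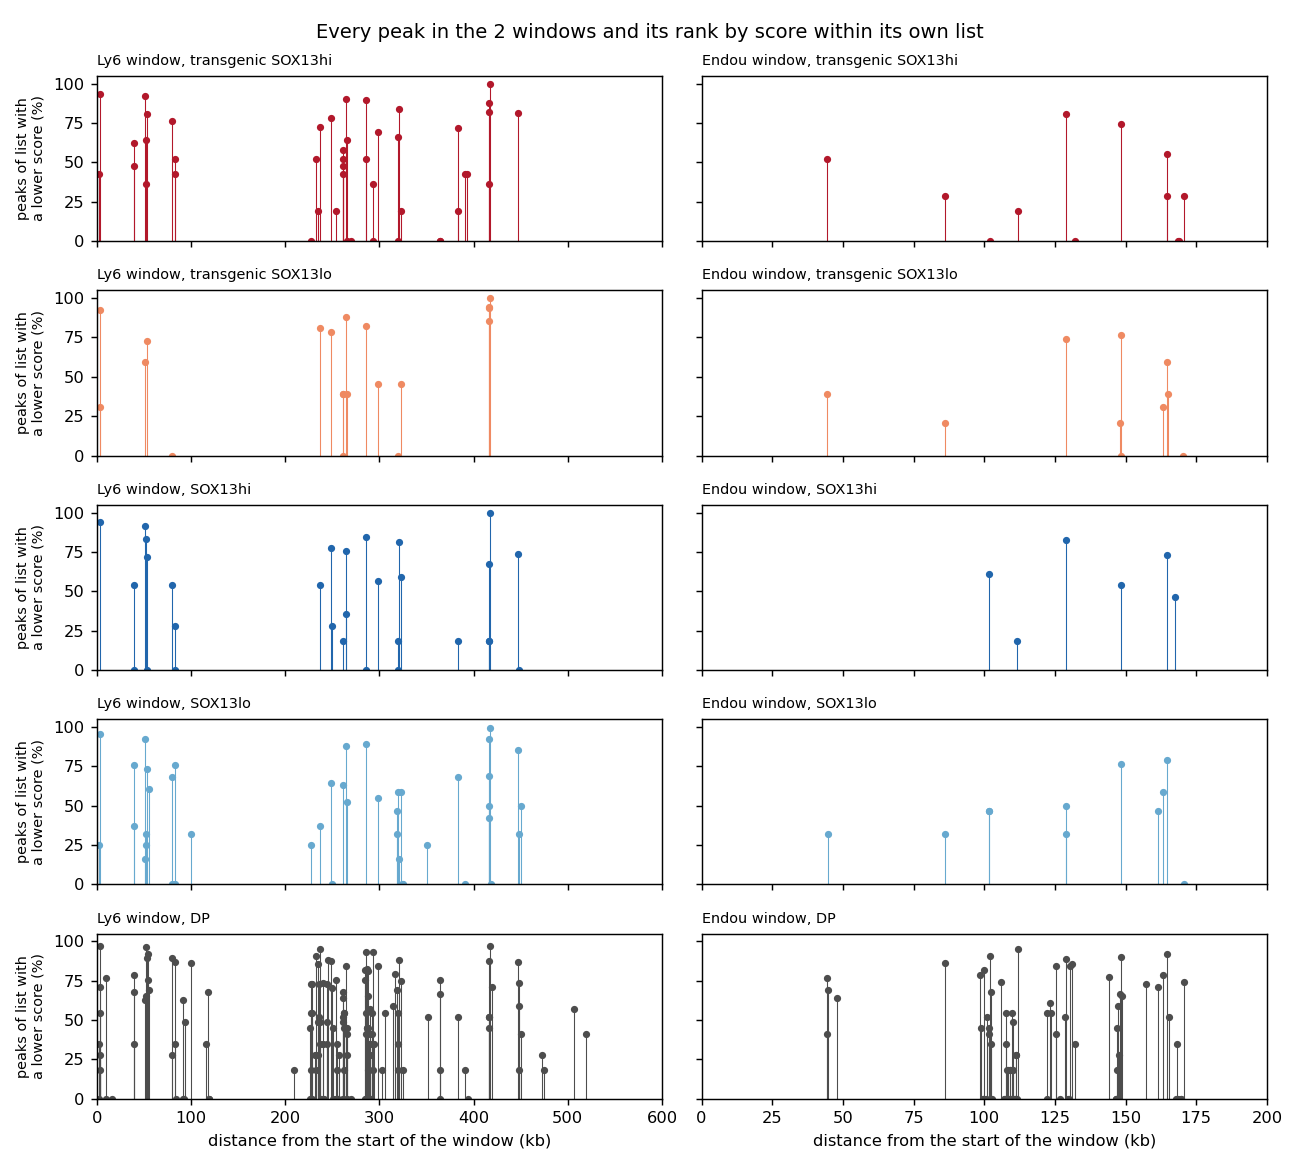
Every peak of the Ly6 window (left) and the Endou window (right) by its distance from the start of the window (kb) and by the percentage of its own list that has a lower score, 1 row per library. A site at 417 kb of the Ly6 window tops all 4 γδ libraries, and the highest peak of the Endou window is above 76.6% to 82.5% of the list in γδ libraries and 95.03% in DP cells. The lists differ in length, so heights are not compared between rows.

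In the Ly6 window no DP excess was seen up to the 10000 highest scores of each list, where no list held more than 10 peaks. Counts this low can miss an excess of the size seen over the whole window, and no interval is given for them. Among the 1000 highest scores of each list, the Ly6 window held 1 peak in every γδ library and 0 in DP cells. Among the 5000 highest it held 3 in transgenic SOX13hi, 6 in transgenic SOX13lo, 3 in SOX13hi, 3 in SOX13lo and 3 in DP cells, and among the 10000 highest 7, 10, 6 and 7 in the γδ libraries in that order and 7 in DP cells. At 20000 there were 15 peaks in transgenic SOX13hi, 16 in transgenic SOX13lo, 11 in SOX13hi, 10 in SOX13lo and 21 in DP cells, which came out on top. The Endou window held no peak of any list among the 5000 highest scores, so nothing can be read there. At 10000 it held 0 in transgenic SOX13hi, 2 in transgenic SOX13lo, 1 in SOX13hi, 0 in SOX13lo and 2 in DP cells. At 20000 it held 2 in transgenic SOX13hi, 5 in transgenic SOX13lo, 2 in SOX13hi, 2 in SOX13lo and 9 in DP cells.

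**Figure D5:**
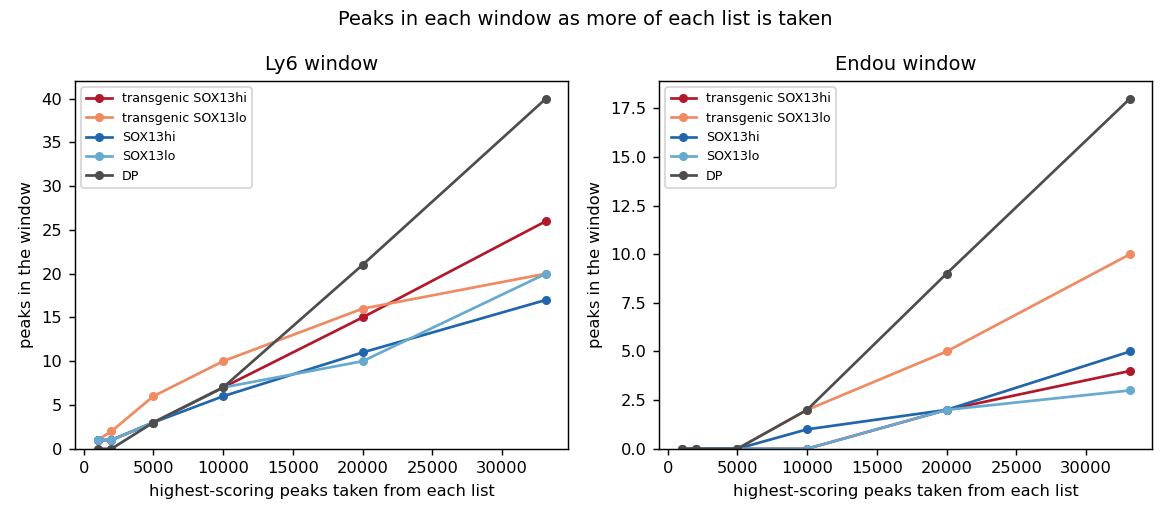
Peaks in the Ly6 window (left) and the Endou window (right) against the number of highest-scoring peaks taken from each list, 1 line per library. Up to 10000 peaks DP cells do not exceed the highest γδ library in either window, and at 33155 they hold 40 and 18 peaks.

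Few DP peaks of these windows met a γδ peak by at least 1 bp. Of the DP peaks in the Ly6 window, 28.9% (21.9 to 36.8) met a peak of at least 1 γδ list, and in the Endou window 13.2% (6.49 to 22.9), whereas over the rest of the genome 44.3% did. The windows were chosen for DP peaks that outnumber γδ peaks, which can itself lower these shares. In lists of equal length they were 42.5%, 33.3% and 74.3%. The DP peaks that met a γδ peak had a median score of 29.5 in the Ly6 window and 71.5 in the Endou window, and those that met none had a median score of 8 in each.

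Seen from the γδ side, most peaks of the Ly6 window met a DP peak. In transgenic SOX13hi 34 of 45 did, 75.6% with an interval of 60.5 to 87.1. The share was 85.0% (62.1 to 96.8) for transgenic SOX13lo, 73.3% (54.1 to 87.7) for SOX13hi and 81.4% (66.6 to 91.6) for SOX13lo. The rest of the genome gave 60.9% to 66.6%. The window was chosen for its many DP peaks, which can itself raise these shares. With equal lengths the shares were 57.7% in transgenic SOX13hi, 55.0% in transgenic SOX13lo, 82.4% in SOX13hi and 65.0% in SOX13lo. The rest of the genome then gave 61.5%, 56.9%, 60.8% and 62.2% in the same order, and each lay inside the counting interval of the Ly6 share beside it. Around Endou 7 of 12 peaks met a DP peak in transgenic SOX13hi, 4 of 10 in transgenic SOX13lo, 5 of 6 in SOX13hi and 8 of 11 in SOX13lo.

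After merging overlapping peaks of the 5 lists, the Ly6 window held 168 regions. Of these, 14 were in all 5 libraries (8.33%, against 9.45% of all regions of the series). In 1 to 3 γδ libraries and DP cells were 29 (17.3%, against 20.3%). In γδ cells and not DP were 17 (10.1%, against 29.9%), and in DP cells alone 108 (64.3%, against 40.3%). Each of those 17 was in exactly 1 γδ library (10.1%, against 23.5% of all regions of the series). With equal lengths 15 of 54 regions were in γδ cells and not DP (27.8%, against 45.3%). Of these, 1 was in all 4 γδ libraries (1.85% of the 54, against 2.48%) and 5 in 2 or 3 (9.26%, against 12.2%). In DP cells alone were 23 (42.6%, against 14.5%). The 14 common regions ran from 74502695 to 74917501, and 6 of them lay in the dense block, so the DP excess there surrounded sites that γδ cells also had open. The Endou window held 85 regions, 3 of them in all 5 libraries (3.53%), 9 in γδ cells alone (10.6%) and 66 in DP cells alone (77.6%). With equal lengths these were 2 (9.09%), 4 (18.2%) and 12 (54.5%) of 22, against 20.1%, 45.3% and 14.5% of all regions of the series. The windows were chosen on this contrast, so the shares are a description. The 3 common regions were 97578844 to 97579072, 97598081 to 97598563 and 97614663 to 97614910. One region, 97494298 to 97494380, was in both transgenic libraries and in no other. Its peaks were above 52.1% of the transgenic SOX13hi list and 38.9% of the transgenic SOX13lo list. DP peaks lay close by on each side, at 97494257 to 97494285 and 97494484 to 97494512, and a SOX13lo peak at 97494648 to 97494675. The share of regions in both transgenic libraries only is not given over the genome. Regions in 2 or 3 γδ libraries and not DP, of which this was the 1 in the Endou window, made up 1.18% there, against 5.71% over the series.

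The choice of the windows did not use the comparisons among γδ libraries. For the Sox13 transgene, the Ly6 window rate of transgenic SOX13hi was 1.28 times that of SOX13hi (0.787 to 2.10), and that of transgenic SOX13lo was 0.947 times that of SOX13lo (0.528 to 1.64). For Endou these ratios were 1.70 (0.592 to 5.53) and 1.85 (0.704 to 4.80). All 4 intervals included 1, so a difference was not detectable with these counts, and the Endou intervals reached up to 5.53. With equal lengths the SOX13hi ratio in the Endou window turned to 0.800. With the SOX13hi and SOX13lo lists exchanged the Ly6 ratios were 1.10 (0.711 to 1.72) and 1.09 (0.589 to 1.99), and the Endou ratios 1.15 (0.465 to 2.88) and 2.74 (0.901 to 9.16).

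Within the Ly6 window the transgenic and non-transgenic libraries are set side by side in the dense block, which held 19 peaks in transgenic SOX13hi and 9 in SOX13hi, or 2.97 and 1.65 per 10000. Transgenic SOX13lo had 2.71 per 10000 there and SOX13lo 1.33. The block was delimited after the counts were seen, and no interval is given for these pairs. With equal lengths the block rates were 3.32 in transgenic SOX13hi, 1.81 in SOX13hi, 2.71 in transgenic SOX13lo and 1.81 in SOX13lo. In the rest of the window the rates were 4.07 in transgenic SOX13hi, 3.86 in SOX13hi, 3.32 in transgenic SOX13lo and 5.04 in SOX13lo. Transgenic SOX13lo was thus the lower of its pair there. Bins were called higher in transgenic SOX13hi than in SOX13hi in 3 of 10 tested (genome 11.8%) and lower in 0 (genome 8.33%). Transgenic SOX13lo was called higher than SOX13lo in 3 of 6 (genome 27.9%) and lower in 0 (genome 15%). With equal lengths the bins called higher were 1 of 5 for transgenic SOX13hi over SOX13hi (genome 8.60%) and 0 of 4 for transgenic SOX13lo over SOX13lo (genome 22.1%). Around Endou only 2 bins held enough peaks in either pair, so none are counted.

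A difference between the CFP fractions was not detectable either. In the Ly6 window the rate of SOX13hi was 0.865 times that of SOX13lo (0.524 to 1.41), and that of transgenic SOX13hi was 1.17 times that of transgenic SOX13lo (0.675 to 2.09). None of 10 bins was called for SOX13hi against SOX13lo, with a background of 9.94% called higher and 15.8% lower. For transgenic SOX13hi against transgenic SOX13lo, 2 of 8 bins were called higher (genome 16.7%) and 0 lower (genome 12.2%), and with equal lengths 0 of 5 were called higher (genome 11.3%). With the lists exchanged, SOX13hi over SOX13lo was 1.16 (0.709 to 1.91). The Endou ratios were 0.676 (0.205 to 1.99) and 0.622 (0.246 to 1.61), and the first turned to 1.67 (0.324 to 10.7) with equal lengths. At these counts an order of the γδ libraries was not detectable in either window.

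The windows were set beside another pair of stretches known from earlier counts for a DP excess. On chromosome 6, 71200001 to 71400000 had 11 peaks in transgenic SOX13hi, 4 in transgenic SOX13lo, 8 in SOX13hi, 11 in SOX13lo and 138 in DP cells. On chromosome 11, 52000001 to 52100000 had 12, 6, 3 and 9 in the γδ libraries in that order and 76 in DP cells. The γδ libraries averaged 0.400 to 1.10 peaks per 20 kb on chromosome 6, 0.6 to 2.40 on chromosome 11, 0.667 to 1.5 in the Ly6 window, 2.25 to 4.75 in its dense block and 0.6 to 1.20 in the Endou window. DP cells averaged 13.8 on chromosome 6, 15.2 on chromosome 11, 5.07 in the Ly6 window, 20.8 in its dense block and 7.60 in the Endou window. The dense block was delimited for its density, so it is not ranked against the others.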

How the data were processed

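ATAC-seq peaks were analysed in 5 libraries, 1 per group, grouped by the sample titles. Per library, the authors deposited 1 list of peaks giving position, name and an integer score. The build is mm9 (per the submitters' processing notes). Aligner, peak caller, threshold and depth: not given in the sources used here. The deposited score has no stated meaning and was used only as a rank within its list.

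Peaks overlapping a window were counted, and binned in 20 kb by their centre. Rates are per 10000 peaks of the list. Lists of equal length hold the 33155 highest scores, with ties kept in file order. Ratios carry exact conditional binomial (Clopper-Pearson) 95% intervals, shares Clopper-Pearson and counts Poisson intervals. With 1 library per group no test was run. Named bins were the 5 with the most DP peaks in each window, and named peaks the 3 with the highest DP score and the 1 with the highest score in each γδ list. The bin with the most peaks of each γδ library was named too, and other bins or stretches were chosen after their values were seen. Alternatives were equal lengths, the upper 50% by score, joining within 150 bp, autosomes only, covered base pairs, reciprocal overlap of 50%, centres within 200 bp, and bins of 10 or 50 kb. How ties were kept, and an exchange of the SOX13hi and SOX13lo lists, were added after seeing the data. The members, windows and lists were chosen with earlier results of these data known. The functions were tested on simulated data. Python 3.11.15 was used with scipy 1.17.1 for intervals, pandas 2.3.3 and numpy 2.4.6 for tables, and matplotlib 3.10.9 for plots.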

Additional observations from a re-analysis of the deposited data

Results flagged for a closer look

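In the Ly6 window the transgenic over non-transgenic rate was above 1 in the SOX13hi fraction (1.28) and below 1 in the SOX13lo fraction (0.947). By the same counts the SOX13hi over SOX13lo rate was above 1 in transgenic cells (1.17) and below 1 in non-transgenic cells (0.865). These results stood out because the 2 groups moved in opposite directions. With the SOX13hi and SOX13lo lists exchanged, since the peaks of the SOX13lo list are named SOX13hi, the ratios were 1.10 and 1.09 for the transgene and 1.16 for SOX13hi over SOX13lo, so no pair then moved in opposite directions. Each interval included 1, each group was 1 library, and the difference between the groups was not tested.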

How the results depend on the processing

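The γδ over DP rate stayed below 1 under all 7 alternatives, at 0.472 to 0.601 in the Ly6 window and 0.230 to 0.340 in the Endou window. The value outside its interval was the Ly6 rate with peaks joined within 150 bp (0.601). Both windows were chosen for a DP excess and the alternatives recount the same lists, so a ratio below 1 describes that choice. The share of DP peaks met by a γδ peak moved with each setting, in the Ly6 window to 42.5% with equal lengths, 10.5% with reciprocal overlap and 38.8% with centres within 200 bp, and in the Endou window to 33.3%, 3.95% and 25.0%. The bins called lower in γδ numbered 8 in the Ly6 window and 5 in the Endou window, and with bins of 50 kb 4 and 3. Equal lengths gave 3 in the Endou window. Larger bins are fewer by construction, and the cause of the other moves was not tested.

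Among γδ libraries every ratio kept within its interval, but several crossed 1. In the Endou window transgenic SOX13hi over SOX13hi did so in 4 of 8 alternatives, 3 of them forms of the equal-length list (lowest 0.800), and SOX13hi over SOX13lo in 5 of 8 (highest 1.67). In the Ly6 window transgenic SOX13lo over SOX13lo reached or crossed 1 in 5 of 8 (highest 1.44, with covered base pairs). Exchanging the SOX13hi and SOX13lo lists gave 1.16 for SOX13hi over SOX13lo. Covered base pairs also turned it (1.08) and transgenic SOX13hi over transgenic SOX13lo (0.902). No paired analysis was possible because each group has 1 library and the labels number no replicates. Unknown read depth and Endou counts of 6 to 12 per γδ library limit these comparisons.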
